A study of Homo sapiens with 12 samples.

Results

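The interferon-stimulated and antiviral sensor genes are the genes by which a cell detects viral RNA, passes on the interferon signal and blocks viral growth. The 38 members were taken by gene symbol from the count tables, with the RNA sensor RIG-I under its older symbol DDX58, and all 38 occur among the 26485 symbols counted in each of 12 libraries. They comprise 3 RNA sensors, 6 STAT and IRF transcription factors, 18 antiviral effectors, 7 genes of ISG15, ubiquitin and ADP-ribose conjugation and 4 genes of antigen processing. Enough reads to be tested were found for 35 members, which are 35 of the 13619 genes tested. The other 3, IFI27, IFI44 and BST2, had 0 to 5 reads in each library and are given as levels only.

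The libraries are poly(A) RNA of DLD1, an established human colorectal adenocarcinoma line, harvested after 1 h in culture with a chemical directed at AHR, the aryl hydrocarbon receptor, which turns on target genes when a ligand binds it. The 4 groups of 3 libraries are DMSO, the vehicle alone, TCDD at 10 µM, kynurenine (Kyn) at 10 µM and a group labelled CH at 10 µM. The labels do not spell CH out and the protocol text names only the other 3 groups, so that its compound was CH223191 is read from the title of the series. TCDD, a dioxin, is a strong AHR agonist, Kyn arises in the breakdown of tryptophan and is held to be a natural ligand, and CH223191 was made as an AHR antagonist. The labels name no virus, interferon or nucleic acid among the treatments, and they leave unsaid if the libraries of 1 group were separate cultures. Every p-value therefore measures only the spread between these libraries, which may be technical.

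Interferons bind receptors that activate JAK kinases, and these phosphorylate STAT proteins, among them STAT2. With IRF9, STAT2 is part of the complex ISGF3, which binds the interferon-stimulated response element (ISRE) in front of many antiviral genes. Epithelial cells also keep a basal level of many of these genes without added interferon, and the cytosolic sensors RIG-I and MDA5 start interferon production through MAVS, TBK1 and IRF3. TIPARP, an ADP-ribosyltransferase that AHR induces, is known to modify TBK1 and so to restrain interferon production.

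The promoter sequences of 4 members are shown as examples of genes that changed, IFIT1, IFIT3 and DDX58 with CH and PARP14 with TCDD. OAS2, OASL and IFIT2, which had larger changes, have no entry in the promoter table. Each is the 250 bases before a transcription start, read 5′ to 3′ on the gene's own strand from RefSeq's GRCh38.p14 annotation. Capitals mark the ISRE letters GAAANNGAAA, where N is any base, or the core GCGTG of the xenobiotic response element to which AHR binds, each searched on both strands with overlapping matches counted.
IFIT1, chr10:89392373-89392622, plus strand: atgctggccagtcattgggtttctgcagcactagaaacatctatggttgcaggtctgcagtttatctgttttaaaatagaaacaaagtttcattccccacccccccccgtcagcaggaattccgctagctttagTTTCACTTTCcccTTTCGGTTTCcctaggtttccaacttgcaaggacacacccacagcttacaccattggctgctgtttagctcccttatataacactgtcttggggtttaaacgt
IFIT3, chr10:89327747-89327996, plus strand: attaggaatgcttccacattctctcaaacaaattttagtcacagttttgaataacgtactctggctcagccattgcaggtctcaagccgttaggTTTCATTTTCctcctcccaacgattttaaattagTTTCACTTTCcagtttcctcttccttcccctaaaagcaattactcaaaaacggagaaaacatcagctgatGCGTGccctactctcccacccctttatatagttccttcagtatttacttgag
DDX58, chr9:32526197-32526446, minus strand: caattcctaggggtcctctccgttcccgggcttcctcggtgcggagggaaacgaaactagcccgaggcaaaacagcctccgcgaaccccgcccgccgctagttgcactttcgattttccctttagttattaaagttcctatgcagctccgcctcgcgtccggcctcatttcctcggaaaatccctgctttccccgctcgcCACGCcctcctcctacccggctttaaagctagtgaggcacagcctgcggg
PARP14, chr3:122680589-122680838, plus strand: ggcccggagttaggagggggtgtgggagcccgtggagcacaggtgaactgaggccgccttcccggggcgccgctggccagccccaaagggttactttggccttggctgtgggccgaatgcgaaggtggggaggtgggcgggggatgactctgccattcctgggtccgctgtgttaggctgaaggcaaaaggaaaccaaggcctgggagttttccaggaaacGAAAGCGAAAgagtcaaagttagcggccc
The IFIT1 stretch holds the ISRE letters at 2 places, 116 and 103 bases before the start, where each distance runs from the match's first base. The IFIT3 stretch holds them at 2 places and the GCGTG core at 1. A second RefSeq start of IFIT3, which is not printed, also has 2 ISRE matches and 1 core. The DDX58 stretch has 0 matches to the ISRE letters and 1 to the core, and that of PARP14 has 1 ISRE match, 29 bases before the start, and 0 cores. IFI35, which rose more with CH than DDX58 and IFIT3, has an entry that is not printed, with 0 ISRE matches and 0 cores.

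Of the 38 members, 30 matched a promoter entry of 250 bases before to 50 after a start, and 21 of these held the ISRE letters in at least 1 entry. Over all 27305 symbols in the same table the share was 4.38%. The core GCGTG, a short motif, was found in 12 of the 30 members and in 40.6% of all symbols. By role, the ISRE letters were found in 12 of 15 effectors, 5 of 6 genes of ISG15, ubiquitin and ADP-ribose conjugation, 3 of 4 antigen-processing genes, 1 of 2 sensors and 0 of 3 STAT and IRF factors. DHX58, IRF2, IRF3, IRF7, IFIT2, OAS2, OASL and USP18 had no entry. A match describes the letters in the window and is neither a binding site nor a cause, and a missing match says nothing of a factor's binding.

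Counted reads ranged from 21397703 to 28247146 per library (median 26666641), and the 38 members together took 0.170 to 0.183% of them. Reads outside annotated genes made up 7.19 to 8.48% in DMSO and 6.59 to 7.30% with CH, and reads with several alignments 3.27 to 3.91% with TCDD against 2.63 to 3.07% in DMSO. The part of these shares in the results was not tested. Levels are given as CPM, the read count scaled by the library's total and its TMM normalization factor. CYP1A1, the AHR target that checks the treatments, had a mean CPM of 3.22 in DMSO, 428 with TCDD, 10.1 with Kyn and 0.520 with CH. Of 4 AHR targets checked, CYP1A1, CYP1B1, AHRR and TIPARP, all 4 were higher with TCDD and all 4 lower with CH, while with Kyn CYP1A1 was higher, CYP1B1 (126 CPM in DMSO, 97.5 with Kyn) and TIPARP lower, and AHRR (6.25 CPM in DMSO, 5.16 with Kyn) not called. The 9 markers of colon epithelium summed to 8352 to 9335 CPM, nearly all of it the general epithelial genes KRT8, KRT18, EPCAM and CDH1. Of the intestinal markers, CDX2 had 122 CPM in DMSO, but KRT20 had 2.73, VIL1 2.33, LGALS4 0.429 and CDX1 0.0488 CPM. The 7 leukocyte markers summed to 4.17 to 13.5 CPM, LYZ the largest, 4 markers of plasmacytoid dendritic cells, which are strong interferon producers, to 21.0 to 25.1 CPM, nearly all of it TCF4, 6 fibroblast markers to 0.436 to 1.26 CPM and 4 endothelial markers to 0.822 to 1.69 CPM. CLEC4C, DCN and KDR among them had 0 reads in all 12 libraries. None of the tested markers of these 4 cell types passed the test against DMSO in any treatment. Of the 8 tested colon epithelium markers, 1 rose and 2 fell with TCDD, 0 were called with Kyn, and 0 rose and 1 fell with CH. Of all genes, 11.7%, 0.294% and 32.8% were called. In TCDD against CH, 2 of the 8 were higher and 3 lower, where 37.1% of all genes were called. The part of these changes in the results was not tested. Between compounds, TCF4 was lower with TCDD than CH (-0.28, adjusted p = 0.00021) and than Kyn (-0.18, adjusted p = 0.044), and IL3RA was higher with TCDD than CH (0.54, adjusted p = 0.034), and their part in the results was not tested. In bulk RNA fewer cells of a type and less RNA per cell cannot be told apart.

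In DMSO the members' basal levels, given as CPM per kilobase of the canonical transcript (RPKM) so that genes can be compared, covered a wide range. The highest were B2M, the light chain of MHC class I, at 79.6 ± 2.28 (SD, n = 3) RPKM and ISG15, a ubiquitin-like modifier, at 72.5 ± 4.09 RPKM. Next came ADAR, which edits adenosine in RNA duplexes, at 51.3 ± 0.605 RPKM, the immunoproteasome subunit PSMB8 at 47.7 ± 3.30 RPKM and the oligoadenylate synthetase OAS3 at 37.2 ± 0.415 RPKM. Several classical interferon-induced genes lay far lower, with MX1 at 1.42 ± 0.177, IFIT1 at 0.412 ± 0.0678, IFIT2 at 0.372 ± 0.108 and OAS2 at 0.0954 ± 0.0407 RPKM.

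**Figure D1:**
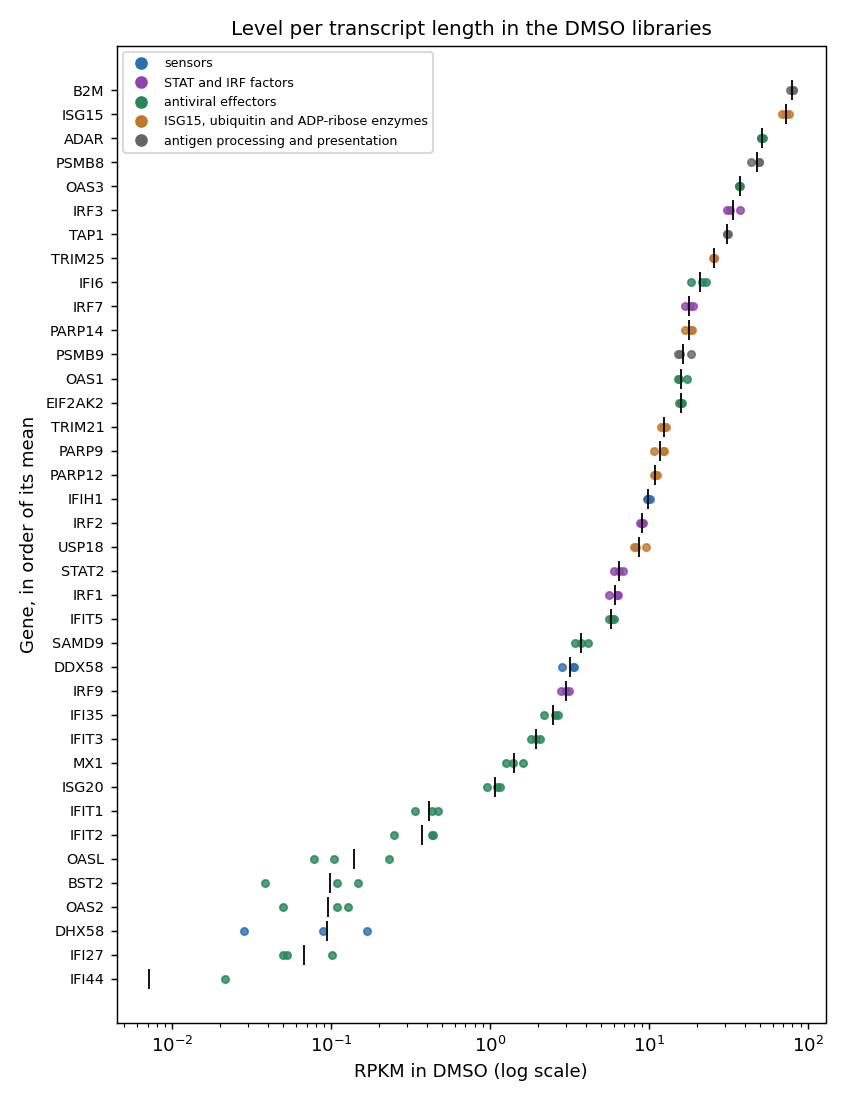
Level of each of the 38 members in the DMSO libraries, in RPKM on a log axis, in order of the mean; points are libraries, the bar is their mean, colours are roles, and libraries at 0 cannot be drawn on a log axis. B2M and ISG15 stand at the top, and IFI27 and IFI44 at the bottom.

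The median over the 35 tested members was 9.90 RPKM, against 8.03 RPKM over the 13194 tested genes with a known length. By role, the median was 39.4 RPKM for antigen processing, 12.4 RPKM for ISG15, ubiquitin and ADP-ribose conjugation, 7.73 RPKM for the STAT and IRF factors, 3.19 RPKM for the sensors and 2.47 RPKM for the 15 tested effectors. Of the 37 pairs of neighbours in this order, 18 overlapped between their 3 libraries, among them OAS1 at 16.0 and EIF2AK2 at 15.9 RPKM and IFIT1 and IFIT2, so their order is not resolved.

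As among all genes tested, the members changed most often with CH. A gene was called where the Benjamini-Hochberg adjusted p of edgeR's quasi-likelihood test, adjusted over all 13619 genes, was under 0.05. With CH against DMSO, 14 of the 35 tested members were called, which is 40%, against 32.8% of all genes tested. The direction was uneven, with 13 higher, which is 37.1% of members against 15.9% of all genes, and 1 lower, which is 2.86% against 16.9%. With GC content and length trends removed, 14 members were again called, 11 higher and 3 lower, against 38.3% of all genes. The median log2 fold change of the members was 0.12 and that of all genes tested 0.00097.

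With TCDD against DMSO 4 members were called, which is 11.4% against 11.7% of all genes, a share near the background. Of these 3 were higher, where 5.91% of all genes were, and 1 was lower, where 5.83% of all genes were. The median log2 fold change was 0.049 for members and 0.00084 for all genes. With Kyn 0 of 35 members were called by edgeR, where 0.294% of all genes were, and 0 by DESeq2. At an unadjusted p under 0.05 there were 3, namely IRF9, IFIT1 and TRIM21, and the medians were 0.0035 for members and -0.0030 for all genes. The 3 comparisons share the DMSO libraries. A joint test over the 4 groups called 20 of 35 members, against 43.6% of all genes. It did not call IFIH1 (adjusted p = 0.07), OAS3 (adjusted p = 0.067) or PSMB8 (adjusted p = 0.069), which were each called in a pair of groups.

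**Figure D2:**
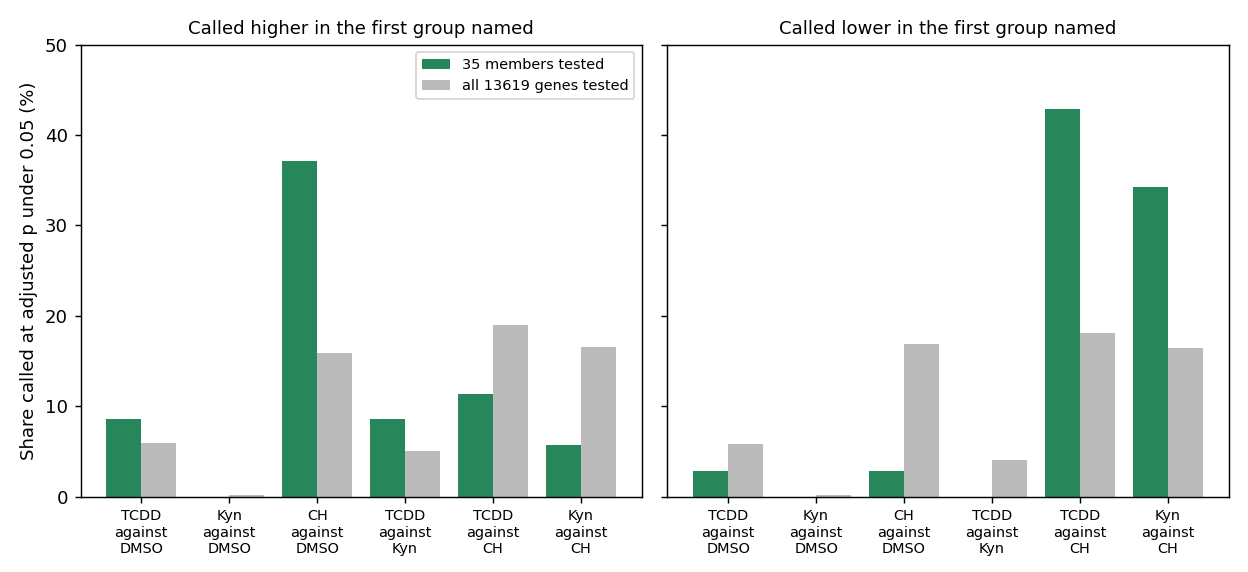
Share of the 35 tested members (green) and of all 13619 genes tested (grey) called higher (left) or lower (right) in the first group named, in percent, for the 6 pairs of groups. The members' bar exceeds the grey one for genes higher with CH than DMSO, 37.1 against 15.9%, and for genes lower with TCDD or Kyn than CH. It is also above the grey bar, by less, for genes higher with TCDD than DMSO (8.57 against 5.91%) or Kyn (8.57 against 5.1%), with 3 members in each.

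Counted without a test, the 3 libraries of each group did not overlap in 21 of 35 members between CH and DMSO, where 43.4% of all genes did so, in 9 between TCDD and DMSO (27.8% of all genes) and in 5 between Kyn and DMSO (11.4% of all genes).

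**Figure D3:**
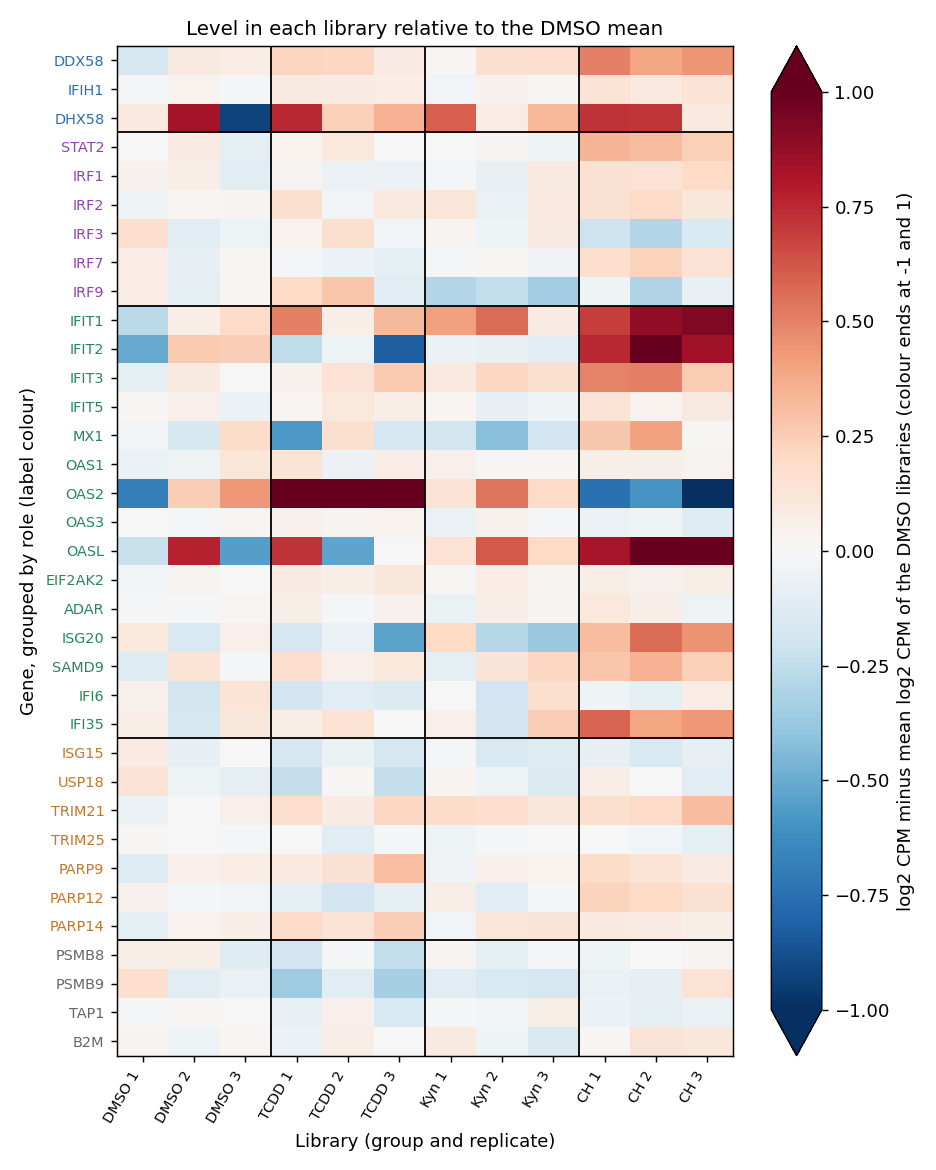
Log2 CPM of the 35 tested members in each of the 12 libraries minus the gene's mean over the DMSO libraries, grouped by role; red is higher and blue lower, and colour is limited to -1 and 1. The CH columns are red in most sensor and IFIT rows, and the OAS2 row is red with TCDD and blue with CH.

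Among the RNA sensors, DDX58 and IFIH1 rose with CH. DDX58 encodes RIG-I, which recognises uncapped ends of viral RNA, and lies on chromosome 9 at 32455302 to 32526208 (hg38). Its levels were 13.1, 15.7 and 15.5 CPM in DMSO, 17.1, 16.98 and 15.5 with TCDD, 14.9, 16.4 and 16.5 with Kyn and 20.9, 19.4 and 19.97 with CH. All 3 CH libraries lay above the other 9, while the TCDD and Kyn libraries overlapped with DMSO. The log2 fold change with CH was 0.44 ± 0.071, adjusted p = 6.9e-06, which is 1.36-fold, each ± being the standard error of the fit unless named SD. With TCDD it was 0.16 (95% interval 0.013 to 0.31) and with Kyn 0.11 (95% interval -0.039 to 0.26), neither called.

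IFIH1 encodes MDA5, the sensor of long RNA duplexes. Its levels were 34.9, 36.4 and 35.1 CPM in DMSO, 37.8, 37.6 and 37.4 with TCDD, 34.9, 36.6 and 35.8 with Kyn and 38.98, 37.9 and 39.1 with CH. The CH libraries lay above the other 9, with those of TCDD just below, and the spread within a group was small. The log2 fold change with CH was 0.12 ± 0.046, adjusted p = 0.038, a call that ended without DMSO library 1 (adjusted p = 0.11), DMSO library 3, CH library 1 or CH library 3, and also without a filter on low counts, with DESeq2 and with GC content and length trends removed. With TCDD the 3 libraries also lay above DMSO, at 0.084 (95% interval -0.010 to 0.18), adjusted p = 0.26, which did not pass. DHX58, the regulatory sensor LGP2, had 6, 12 and 2 reads in the DMSO libraries, 10, 6 and 7 with TCDD, 10, 6 and 7 with Kyn and 11, 11 and 5 with CH, and no difference was detectable at this depth, with 0.49 (95% interval -0.49 to 1.46) for CH.

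Of the 6 STAT and IRF factors, STAT2, IRF1 and IRF7 rose and IRF3 fell with CH, while 0 of 6 were called with TCDD or Kyn against DMSO. STAT2, a subunit of ISGF3, had 28.6, 30.1 and 26.7 CPM in DMSO, 29.1, 30.6 and 28.6 with TCDD, 28.5, 28.9 and 27.5 with Kyn and 35.95, 35.3 and 33.5 with CH. The CH libraries stood apart above all others, and the other 9 lay within 26.7 to 30.6 CPM. Its log2 fold change with CH was 0.30 ± 0.052, adjusted p = 3.1e-05, against 0.047 (95% interval -0.063 to 0.16) with TCDD and -0.0061 (95% interval -0.12 to 0.10) with Kyn.

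IRF1 and IRF7, transcription factors that amplify the interferon response, showed smaller rises. IRF1 had 22.3, 22.7 and 19.97 CPM in DMSO, 21.98, 20.7 and 20.8 with TCDD, 21.5, 20.6 and 23.1 with Kyn and 23.97, 23.9 and 24.9 with CH. The CH libraries lay above those of the other groups by a narrow margin, at 0.16 ± 0.059, adjusted p = 0.034, and the call ended without DMSO library 3 (adjusted p = 0.23) or any 1 of the CH libraries, and with DESeq2 or GC content and length trends removed. IRF7 had 36.3, 32.5 and 34.7 CPM in DMSO, 34.2, 33.1 and 32.2 with TCDD, 33.99, 34.8 and 33.7 with Kyn and 38.6, 40.4 and 38.1 with CH. Here the CH libraries lay above the other 9, and the log2 fold change was 0.18 ± 0.049, adjusted p = 0.0044.

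IRF3, the factor that RNA sensors activate first, moved the other way. Its levels were 59.9, 49.3 and 51.6 CPM in DMSO, 54.7, 59.8 and 52.3 with TCDD, 54.4, 51.9 and 56.7 with Kyn and 46.1, 43.5 and 47.9 with CH. The 3 CH libraries were the lowest of the 12, and DMSO library 1 was the highest. The log2 fold change with CH was -0.23 ± 0.057, adjusted p = 0.0023, and without DMSO library 1 the adjusted p was 0.060.

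IRF9, the DNA-binding part of ISGF3, had 5.11, 4.56 and 4.92 CPM in DMSO, 5.58, 5.89 and 4.48 with TCDD, 3.95, 4.07 and 3.80 with Kyn and 4.71, 3.93 and 4.60 with CH. The Kyn libraries lay below the DMSO libraries, but the fit gave -0.30 (95% interval -0.55 to -0.051), adjusted p = 0.59. IRF2, which competes with IRF1 for its sites, was between 19.3 and 23.2 CPM in the 12 libraries and was not called, at 0.15 (95% interval 0.030 to 0.28), adjusted p = 0.051, with CH. IRF2 was called higher with CH in several alternative fits (adjusted p = 0.023 with library totals alone).

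Among the 15 tested effectors, 6 rose and 0 fell with CH, with a median log2 fold change of 0.25. The 6 were IFIT1, IFIT2, IFIT3, OASL, IFI35 and SAMD9. With TCDD 1 of 15 was called, OAS2, and with Kyn 0. The medians were 0.053 and 0.022.

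The IFIT genes encode proteins that bind foreign RNA and stand in 1 cluster on chromosome 10, in the order IFIT2 (89283694 to 89309271, hg38), IFIT3, IFIT1 and IFIT5 (89414568 to 89421605). IFIT1 had 1.45, 1.84 and 2.02 CPM in DMSO, 2.52, 1.83 and 2.22 with TCDD, 2.35, 2.62 and 1.86 with Kyn and 2.88, 3.32 and 3.40 with CH, from 38, 51 and 55 reads in DMSO and 80, 93 and 74 with CH. IFIT2 had 0.839, 1.48 and 1.47 CPM in DMSO, 1.02, 1.18 and 0.658 with TCDD, 1.18, 1.16 and 1.13 with Kyn and 2.12, 2.61 and 2.25 with CH. In both genes the CH libraries were the highest 3 of the 12, and DMSO library 1 was the lowest or second lowest. IFIT1 was 1.80-fold higher with CH (log2 fold change 0.84 ± 0.17, adjusted p = 0.00017) and IFIT2 1.84-fold higher (0.88 ± 0.21, adjusted p = 0.0011). IFIT3 had 4.35, 4.92 and 4.63 CPM in DMSO, 4.76, 5.11 and 5.55 with TCDD, 4.95, 5.35 and 5.17 with Kyn and 6.55, 6.60 and 5.52 with CH. Its CH libraries lay above all DMSO and Kyn libraries and overlapped with TCDD in 1 library, and the log2 fold change was 0.43 ± 0.11, adjusted p = 0.0023. IFIT5, the neighbour at the end of the cluster, had 22.1 to 25.7 CPM over the 12 libraries, with a CH change of 0.086 (95% interval -0.026 to 0.20), whose upper bound lies under the lower bound of IFIT1 at 0.50.

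**Figure D4:**
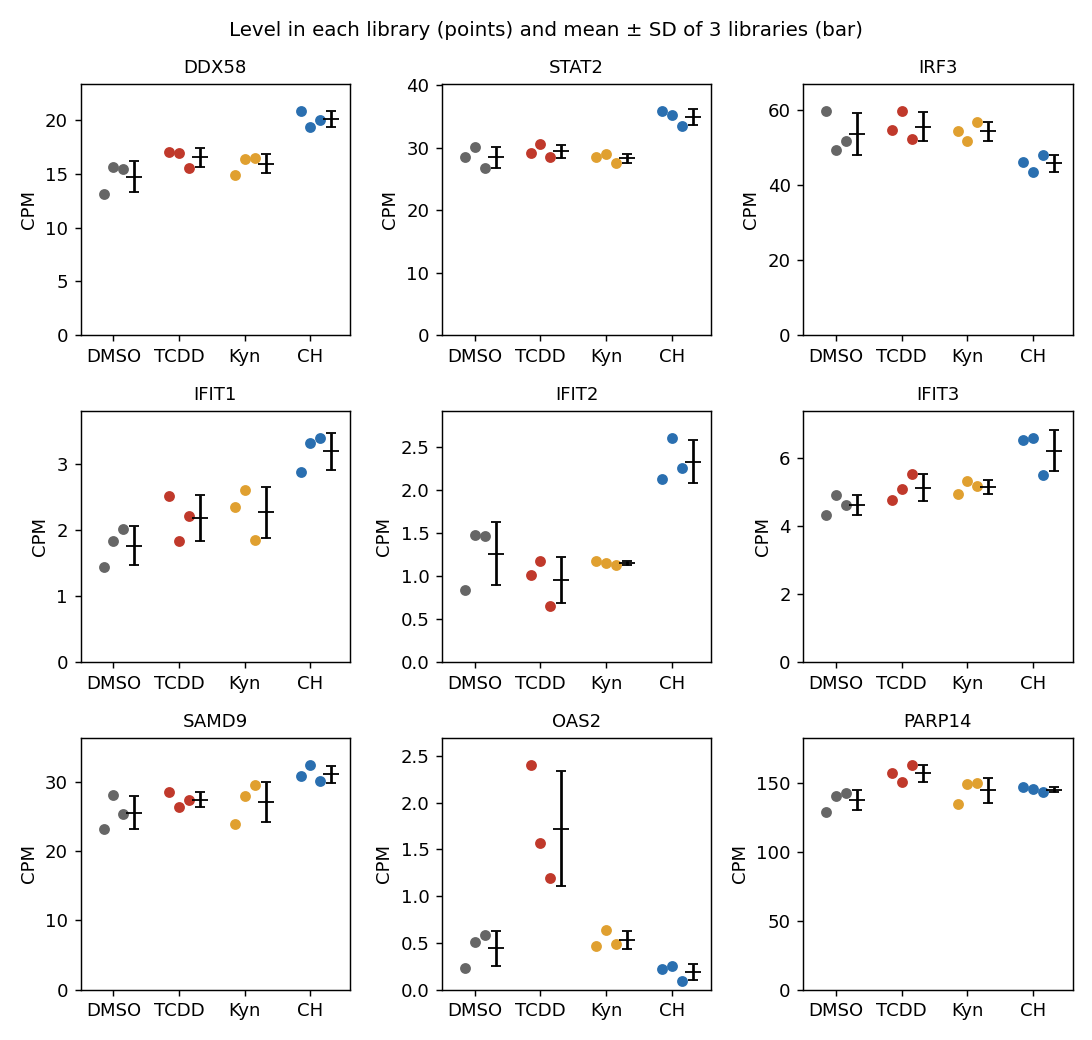
CPM in each library of 9 members in the 4 groups; points are libraries and the black bar is mean ± SD of 3 libraries, with axes from 0. The CH points are the highest in DDX58, STAT2, IFIT1, IFIT2 and SAMD9 and the lowest in IRF3, and the TCDD points are the highest in OAS2.

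The oligoadenylate synthetases sense RNA duplexes and make the messenger that activates RNase L. OAS2 was the member with the largest change in TCDD. It had 6, 14 and 16 reads in the DMSO libraries, 59, 36 and 29 with TCDD, 13, 17 and 12 with Kyn and 6, 7 and 2 with CH, which is 0.229, 0.506 and 0.587 CPM in DMSO, 2.40, 1.57 and 1.19 with TCDD, 0.463, 0.636 and 0.485 with Kyn and 0.216, 0.250 and 0.0920 with CH. Each TCDD library lay above all other libraries, and the CH libraries were the lowest with 1 DMSO library among them. The log2 fold change with TCDD was 1.95 ± 0.31, adjusted p = 2.7e-05, which is 3.86-fold, at a low level that rests on 36 DMSO and 124 TCDD reads in all. With CH it was -1.18 (95% interval -2.17 to -0.19), adjusted p = 0.061, not called. OAS2 was called lower with CH in some alternative fits. The adjusted p was 0.043 without a filter on low counts, 0.044 with GC content and length trends removed and 0.023 without DMSO library 1.

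OAS2 lies at 112978395 to 113011723 on chromosome 12 (hg38), next to OAS1 and OAS3 on the same strand. OAS1 had 24.8, 25.1 and 28.3 CPM in DMSO, 28.6, 24.9 and 27.3 with TCDD, 26.9, 26.2 and 26.3 with Kyn and 27.1, 27.2 and 26.7 with CH, with all groups overlapping. Its TCDD change was 0.049 (95% interval -0.069 to 0.17). OAS3 had 244, 244 and 249 CPM in DMSO, 252, 251 and 251 with TCDD, 234, 253 and 243 with Kyn and 236, 239 and 226 with CH, and its TCDD change was 0.034 (95% interval -0.034 to 0.10). Both intervals lie far under that of OAS2, 1.32 to 2.57. With GC content and length trends removed, OAS3 was called lower with CH than DMSO (-0.098, adjusted p = 0.0063). In that fit it was also called higher with Kyn than CH (0.104, adjusted p = 0.0035). OASL, a relative without synthetase activity that acts with RIG-I, had 9, 21 and 7 reads in DMSO, 18, 6 and 10 with TCDD, 13, 18 and 12 with Kyn and 22, 29 and 21 with CH. The CH libraries were the highest 3, with DMSO library 2 close below at 0.759 against 0.792 CPM. The CH change was 1.02 ± 0.34, adjusted p = 0.022, which ended without DMSO library 3 (adjusted p = 0.14), DMSO library 1, CH library 2 or CH library 3, and with DESeq2.

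IFI35, a partner of the signalling protein NMI, and SAMD9, which restricts poxviruses, completed the effectors called with CH. IFI35 had 3.05, 2.57 and 3.16 CPM in DMSO, 3.05, 3.23 and 2.92 with TCDD, 3.03, 2.54 and 3.47 with Kyn and 4.39, 3.85 and 3.96 with CH, and SAMD9 had 23.2, 28.03 and 25.3 CPM in DMSO, 28.5, 26.3 and 27.4 with TCDD, 23.9, 27.9 and 29.5 with Kyn and 30.8, 32.4 and 30.04 with CH. In both the CH libraries lay above the other 9. The log2 fold changes were 0.48 ± 0.14, adjusted p = 0.0067 for IFI35 and 0.29 ± 0.065, adjusted p = 0.00078 for SAMD9. ISG20, an exonuclease that degrades viral RNA, had 1.83, 1.52 and 1.76 CPM in DMSO, 1.51, 1.61 and 1.15 with TCDD, 1.96, 1.38 and 1.29 with Kyn and 2.12, 2.53 and 2.35 with CH, with all CH libraries highest, yet the CH change of 0.45 (95% interval 0.083 to 0.83) gave an adjusted p of 0.054. ISG20 was called higher with CH in some alternative fits (adjusted p = 0.042 with library totals alone). MX1, a GTPase that traps viral nucleocapsids, had 3.85, 3.51 and 4.48 CPM in DMSO, 2.61, 4.41 and 3.49 with TCDD, 3.46, 2.92 and 3.43 with Kyn and 4.75, 5.21 and 3.96 with CH, with overlap between CH and DMSO and a change of 0.25 (95% interval -0.045 to 0.54).

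The remaining tested effectors did not pass the test in any pair of groups. EIF2AK2, the kinase PKR that shuts down translation, lay at 155 to 171 CPM, ADAR at 324 to 365 CPM and IFI6, a mitochondrial and ER survival protein, at 14.8 to 18.9 CPM. With CH their log2 fold changes were 0.055 (95% interval -0.014 to 0.12), 0.040 (95% interval -0.035 to 0.11) and -0.032 (95% interval -0.19 to 0.13). EIF2AK2 shares exon sequence with GPATCH11 on the opposite strand, as TAP1 does with PSMB8-AS1, and TRIM25 shares it with MIR3614 on its own strand. As no source used here says if the counting used strand, reads of overlapping genes may be mixed. Of the untested effectors, BST2, which tethers budding virions, held 1, 3 and 4 reads in DMSO, 2, 2 and 4 with TCDD, 3, 0 and 0 with Kyn and 3, 3 and 5 with CH.

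Of the 7 genes of ISG15, ubiquitin and ADP-ribose conjugation, PARP9 and PARP14 were called higher with TCDD, where 5.91% of all genes were, and PARP12 and TRIM21 with CH, where 15.9% were. PARP9 and TRIM21 were not called between TCDD and CH. PARP14, a mono-ADP-ribosyltransferase linked to interferon output, had 129, 141 and 143 CPM in DMSO, 157, 151 and 163 with TCDD, 135, 149 and 151 with Kyn and 147, 146 and 143 with CH. All TCDD libraries lay above the other 9. The log2 fold change with TCDD was 0.19 ± 0.042, adjusted p = 0.0019, which is 1.14-fold, and with CH 0.079 (95% interval -0.0058 to 0.16). PARP9, the partner of the ubiquitin ligase DTX3L, lies at 122527924 to 122564577 on chromosome 3 (hg38) and PARP14 at 122680839 to 122730840. PARP9 had 32.8, 37.1 and 37.8 CPM in DMSO, 38.4, 39.8 and 44.1 with TCDD, 35.02, 37.05 and 36.8 with Kyn and 40.7, 39.5 and 38.05 with CH. The TCDD libraries lay above DMSO and Kyn and overlapped with CH, at 0.18 ± 0.055, adjusted p = 0.026, and the call ended without TCDD library 3 (adjusted p = 0.28) or DMSO library 1, or with GC content and length trends removed. With CH the libraries also lay above DMSO, at 0.13 (95% interval 0.024 to 0.25), adjusted p = 0.056, which passed in several alternative fits (adjusted p = 0.025 with library totals alone).

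PARP12, another mono-ADP-ribosyltransferase, and TRIM21, an antibody receptor and ubiquitin ligase of the cytosol, rose with CH. PARP12 had 34.1, 32.8 and 32.6 CPM in DMSO, 31.02, 29.02 and 30.9 with TCDD, 34.7, 30.9 and 32.9 with Kyn and 38.7, 38.1 and 36.9 with CH. The CH libraries were the highest 3 and the TCDD libraries all lay below DMSO, and the CH change was 0.19 ± 0.050, adjusted p = 0.0029, against -0.13 (95% interval -0.23 to -0.022) with TCDD, which did not pass (adjusted p = 0.11). TRIM21 had 22.999, 24.01 and 24.8 CPM in DMSO, 27.03, 25.3 and 27.6 with TCDD, 27.2, 26.8 and 25.9 with Kyn and 26.8, 27.3 and 29.6 with CH. Every treated library lay above all DMSO libraries, but the call was limited to CH, at 0.22 ± 0.055, adjusted p = 0.0026. The adjusted p was 0.071 with TCDD at 0.15 (95% interval 0.039 to 0.27) and 0.46 with Kyn at 0.16 (95% interval 0.043 to 0.27), and the 3 changes were not shown to differ. Without TCDD library 2 the TCDD change of TRIM21 was called (adjusted p = 0.042).

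ISG15 had 48.7, 43.5 and 46.3 CPM in DMSO, 41.03, 43.99 and 41.02 with TCDD, 45.9, 41.5 and 42.3 with Kyn and 43.7, 41.6 and 43.5 with CH, and the groups overlapped. It was not called in any pair in the main fit, at -0.14 (95% interval -0.24 to -0.035) with TCDD and -0.11 (95% interval -0.21 to -0.0056) with CH. ISG15 was called lower in some fits that left out 1 library. Without DMSO library 2 the adjusted p was 0.024 with TCDD and 0.034 with CH. USP18, which removes ISG15 and damps the interferon receptor, lay at 13.5 to 17.7 CPM, and TRIM25, a ubiquitin ligase of the RIG-I pathway, at 137 to 148 CPM, with CH changes of -0.0096 (95% interval -0.17 to 0.15) and -0.034 (95% interval -0.11 to 0.039). USP18 has a close relative, USP41, and reads shared between them make its count uncertain.

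**Figure D5:**
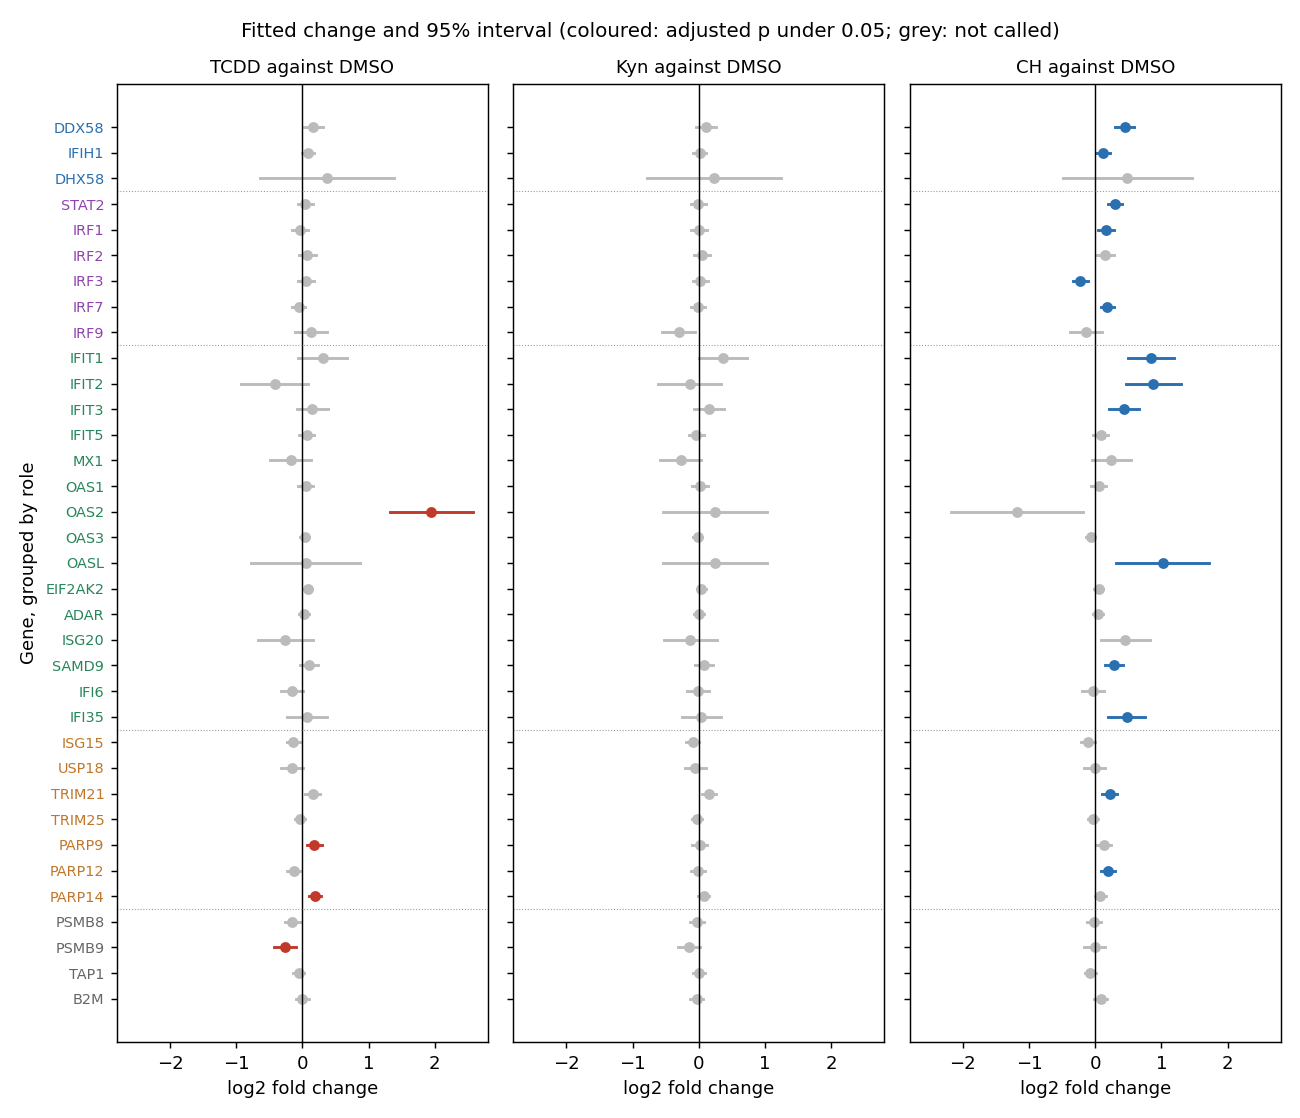
Fitted log2 fold change against DMSO of the 35 tested members with TCDD, Kyn and CH, with 95% intervals, grouped by role; coloured points were called and grey points were not. The CH panel holds 13 called points right of 0 and 1, IRF3, left of it, and the Kyn panel holds 0.

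No antigen-processing gene was called higher against DMSO. PSMB9, an immunoproteasome subunit, had 18.8, 15.5 and 15.9 CPM in DMSO, 13.03, 15.5 and 13.2 with TCDD, 15.4, 14.99 and 14.8 with Kyn and 15.9, 15.8 and 18.4 with CH. The 3 TCDD libraries lay below all DMSO libraries, TCDD library 2 only just, and the log2 fold change was -0.27 ± 0.081, adjusted p = 0.027, a fall that ended as a call without DMSO library 1 (adjusted p = 0.24), TCDD library 1 or TCDD library 3, and with DESeq2. PSMB8 had 55.8, 55.7 and 49.3 CPM in DMSO, 46.8, 53.1 and 45.01 with TCDD, 54.5, 50.2 and 52.6 with Kyn and 51.8, 53.3 and 54.4 with CH, with TCDD and DMSO overlapping and a change of -0.15 (95% interval -0.26 to -0.042), adjusted p = 0.062. PSMB8 was called lower with TCDD in some alternative fits. The adjusted p was 0.022 without a filter on low counts and 0.0079 without TCDD library 2. With CH 0 of the 4 were called, and the changes of TAP1, the peptide transporter, and B2M were -0.073 (95% interval -0.16 to 0.014) and 0.085 (95% interval -0.011 to 0.18). PSMB8, PSMB9 and TAP1 lie side by side on chromosome 6 and their annotated spans overlap.

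Most members called between 2 compounds differed between CH and TCDD or Kyn. Between TCDD and CH 19 of 35 members were called, which is 54.3% against 37.1% of all genes, with 15 lower with TCDD (42.9% against 18.1%) and 4 higher (11.4% against 19%). Between Kyn and CH 14 were called, 40% against 33% of all genes, with 12 lower with Kyn (34.3% against 16.4%) and 2 higher (5.71% against 16.6%). The libraries did not overlap in 18 of 35 members between TCDD and CH (47.3% of all genes) and in 20 between Kyn and CH (43.5% of all genes). These comparisons share libraries with each other and with those against DMSO.

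The 12 members lower with Kyn than CH were DDX58, STAT2, IRF1, IRF7, ISG20, IFIT1, IFIT2, IFIT3, IFI35, MX1, PARP12 and SAMD9, and each was also lower with TCDD than CH, where OASL, PSMB8 and PSMB9 were called besides. IFIT2 was among them, at -1.30 ± 0.22, adjusted p = 1.9e-05 for TCDD minus CH and -1.01 ± 0.21, adjusted p = 0.00028 for Kyn minus CH, as was ISG20, at -0.71 ± 0.19, adjusted p = 0.0039 and -0.58 ± 0.19, adjusted p = 0.015. OASL differed by -0.97 ± 0.35, adjusted p = 0.03 for TCDD minus CH. MX1 and ISG20, which were not called against DMSO in the main fit, passed here, with MX1 at -0.42 ± 0.15, adjusted p = 0.025 and -0.52 ± 0.15, adjusted p = 0.0067. IRF3 and OAS2 were higher with TCDD and with Kyn than with CH. OAS2 was 8.74-fold higher with TCDD, at a log2 difference of 3.13 ± 0.37, adjusted p = 2.1e-08, and 1.43 ± 0.47, adjusted p = 0.018 with Kyn, where without Kyn library 2 or CH library 3 it was not called. IRF3 differed by 0.28 ± 0.058, adjusted p = 0.00022 and 0.25 ± 0.057, adjusted p = 0.001. OAS3 and PARP14 were higher with TCDD than CH, by 0.10 and 0.11.

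In these 2 comparisons, 9 of the 19 TCDD and CH calls and 6 of the 14 Kyn and CH calls were made in every alternative fit that gave a value. DDX58, STAT2, IRF3, IRF7, IFIT2 and PARP12 were among both. With CH against DMSO, 10 of 14 were made in every such fit. In what follows a group name with a number is a library, named with the highest adjusted p first. Between TCDD and CH the call ended for IFI35 without CH 1 (adjusted p = 0.089) or TCDD 3 and for IFIT1 without TCDD 2 (adjusted p = 0.065). The call ended for IFIT3 without TCDD 1 (adjusted p = 0.15), TCDD 2, CH 1 or CH 2 and for MX1 without TCDD 1 (adjusted p = 0.22), TCDD 3, CH 1 or CH 2. The call ended for OAS3 without CH 3 (adjusted p = 0.087) or TCDD 1 and for OASL without TCDD 2 (adjusted p = 0.16), TCDD 3, CH 2 or CH 3. The call ended for PARP14 without TCDD 3 (adjusted p = 0.2), TCDD 1, CH 1, CH 2 or CH 3 and for PSMB8 without TCDD 3 (adjusted p = 0.23), TCDD 1, CH 2 or CH 3. The call ended for PSMB9 without CH 3 (adjusted p = 0.1), TCDD 1 or TCDD 3 and for SAMD9 without CH 2 (adjusted p = 0.12), TCDD 2 or TCDD 3. Between Kyn and CH the call ended for IFI35 without Kyn 2 (adjusted p = 0.096) or CH 1 and for IFIT1 without Kyn 3 (adjusted p = 0.12), CH 2 or CH 3. It also ended for IFIT3 without CH 2 (adjusted p = 0.16), Kyn 1, Kyn 2, Kyn 3 or CH 1 and for IRF1 without Kyn 2 (adjusted p = 0.18), Kyn 1, CH 1, CH 2 or CH 3. It also ended for ISG20 without Kyn 3 (adjusted p = 0.079), Kyn 2 or CH 2 and for MX1 without CH 2 (adjusted p = 0.06). It also ended for OAS2 without CH 3 (adjusted p = 0.078) or Kyn 2 and for SAMD9 without Kyn 1 (adjusted p = 0.15) or CH 2. DESeq2 did not call IFI35, IFIT3, MX1, OASL, PSMB8 and SAMD9 between TCDD and CH or IFI35, IFIT1, IFIT3, IRF1 and ISG20 between Kyn and CH. With GC content and length trends removed the calls of PARP14 and PSMB8 ended in the first comparison and those of IFIT3 and IRF1 in the second. PARP14 was also not called with library totals alone, nor IFIT3 in both comparisons and IRF1 in the second without a filter on low counts. With a replicate block the adjusted p of IFIT3 between Kyn and CH was 0.05 after rounding, just above the threshold.

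TCDD and Kyn differed in 3 members, 8.57% against 9.19% of all genes, a share near the background. All 3 were higher with TCDD, 8.57% against 5.1% of all genes. The libraries did not overlap in 6 of 35 members, against 26% of all genes. OAS2 differed by 1.70 ± 0.30, adjusted p = 0.00013, IRF9 by 0.43 ± 0.12, adjusted p = 0.023, and PARP9 by 0.17 ± 0.055, adjusted p = 0.048. The IRF9 call ended without TCDD library 2 (adjusted p = 0.12), TCDD library 1, Kyn library 1 or Kyn library 3, and 8 of the 12 fits that each left out 1 library did not call PARP9. DESeq2 called neither. The OAS2 call was made in all 12.

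By role, the share called with CH was 2 of 3 sensors, 4 of 6 STAT and IRF factors, 6 of 15 effectors, 2 of 7 genes of ISG15, ubiquitin and ADP-ribose conjugation and 0 of 4 antigen-processing genes, against 32.8% of all genes tested. The summed CPM of the sensors, which is mostly IFIH1, was 48.2 to 52.5 in DMSO and 57.7 to 60.2 with CH, without overlap. With TCDD it was 53.2 to 55.3, also without overlap with DMSO, and with Kyn 50.2 to 53.3, which overlapped. The summed CPM of the effectors, which is mostly ADAR and OAS3, was 842 to 865 in DMSO and 842 to 891 with CH. With TCDD the effectors summed to 864 to 888 and with Kyn to 827 to 882. Beside the promoter letters, 6 of the 10 members higher with CH that had an entry held the ISRE letters (IFIH1, IFIT1, IFIT3, SAMD9, TRIM21 and PARP12), against 12 of 17 tested members not called with CH. PARP9 and PARP14, higher with TCDD, both held them, with 0 matches to GCGTG.

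The other genes of the pathway came from 4 further lists. TIPARP was 44.01 ± 0.657 CPM in DMSO (SD, n = 3), 145 ± 5.69 with TCDD, 37.997 ± 1.59 with Kyn and 33.4 ± 1.15 with CH. It rose with TCDD (1.72 ± 0.042, adjusted p = 2.6e-27) and fell with Kyn (-0.21 ± 0.047, adjusted p = 0.027) and CH (-0.40 ± 0.048, adjusted p = 4.5e-08). Of the 16 tested genes in a list drawn up as restraints of interferon signalling, TIPARP included, 1 rose and 1 fell with TCDD, 0 rose and 1 fell with Kyn, and 4 rose and 3 fell with CH, where 11.7%, 0.294% and 32.8% of all genes were called. With CH the smallest p-values besides TIPARP belonged to RNF125, a ubiquitin ligase that marks RIG-I for degradation (0.85 ± 0.097, adjusted p = 1.2e-08), and ISG20L2, a nucleolar exonuclease related to ISG20 (-0.33 ± 0.049, adjusted p = 1.3e-06). ISG20L2 is 1 of the 3 listed genes that fell, and its fall is not read as that of a restraint of interferon. IRF2BP1, a corepressor of IRF2, fell with TCDD (-0.19 ± 0.045, adjusted p = 0.004).

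Interferon transcripts were at or near 0. IFNB1, IFNA1, IFNG, IFNL1, IFNL2 and IFNL3 had 0 reads in all 12 libraries, which allows up to 0.107 to 0.138 CPM per library from a floor of 3 counts, IFNK had at most 1 read in a group and IFNE 5 to 15 reads in a group. Of the 6 interferon receptor genes, 0 were called with TCDD or Kyn and 3 fell with CH, where 16.9% of all genes fell. These were IFNLR1, a receptor chain for type III interferon (-0.22 ± 0.057, adjusted p = 0.0032), IFNGR2 (-0.16 ± 0.063, adjusted p = 0.042) and IFNAR2 (-0.16 ± 0.062, adjusted p = 0.046).

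Of the 17 tested genes of receptor and sensor signalling, 0 rose and 1 fell with TCDD, 0 were called with Kyn, and 3 rose and 3 fell with CH, against 11.7%, 0.294% and 32.8% of all genes called, so the share with CH was near the background. TLR3, the endosomal sensor of RNA duplexes, rose with CH (0.50 ± 0.073, adjusted p = 1.3e-06), as did IRF5 (0.40 ± 0.088, adjusted p = 0.00052), while TICAM1, the adaptor of TLR3, fell (-0.28 ± 0.063, adjusted p = 0.00076), and also with TCDD (-0.20 ± 0.063, adjusted p = 0.037).

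Of 50 tested genes in a list of other interferon-stimulated genes, 4 rose and 2 fell with TCDD, 0 were called with Kyn, and 10 rose and 4 fell with CH. These shares were near the 11.7% and 32.8% of all genes called with TCDD and CH. The median log2 fold change with CH was 0.050, beside 0.12 for the 35 members. APOL6, an interferon-induced apolipoprotein L, went from 43.1 ± 1.95 to 84.2 ± 2.96 CPM (SD, n = 3) with CH (0.97 ± 0.052, adjusted p = 2.8e-17), TRANK1 changed by 0.58 ± 0.090, adjusted p = 4.1e-06, and SP100, a nuclear body protein, by 0.27 ± 0.055, adjusted p = 0.00027. With TCDD the 3 of smallest p were TAPBP, the MHC class I loading factor (-0.14 ± 0.037, adjusted p = 0.0085), LY6E (-0.15 ± 0.041, adjusted p = 0.016) and DTX3L, encoded beside PARP9 (0.14 ± 0.040, adjusted p = 0.018).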

How the data were processed

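Poly(A) RNA sequencing of DLD1 cells was analysed from 12 libraries, 3 in each of the groups DMSO, TCDD, Kyn and CH. Per the submitters' processing notes, the authors used Trim Galore, STAR 2.7.2b, SAMtools 1.9 and HTSeq with genome build hg38. The deposited files hold whole read counts, 1 per gene symbol. The labels' protocol text names another STAR version, and the strand setting is not given in the sources used here. The tests ran under R 4.3.3 in edgeR 4.0.16, which builds on limma 3.58.1. Genes were kept by filterByExpr (minimum count 10), libraries were scaled by TMM, and the quasi-likelihood fit took all 12 libraries and all 13619 genes kept, with a mean for each group. Each of 6 pairs of groups was tested, with Benjamini-Hochberg adjustment over all genes and a call at an adjusted p under 0.05. RPKM used the canonical transcript length of GENCODE 44, in which 24300 of 26485 symbols were matched, by symbol or synonym. The procedure was tested on simulated data.

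Members called in any pair, and DHX58, ISG15 and OAS1, are given by library, the others by range, and from each other list the 3 genes of smallest p are named. The members and lists were chosen with earlier results of these data known. Same-group libraries differed by 1.80 to 4.94 times Poisson variance, so none was counted as a duplicate. The alternatives were RLE factors, unadjusted library totals, all genes without a filter, a filter of 5 CPM in 3 libraries, the replicate number as a block, DESeq2 1.42.0, a fit of the compared groups alone, removal of GC content and length trends, and each library left out. Floors and intervals cover counting error or the spread between these libraries only.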

Additional observations from a re-analysis of the deposited data

How the results depend on the processing

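No called member changed direction under any alternative run. Of the counts of members called, 4 moved by over 1.5 times under an alternative other than leaving out a library. DESeq2 called 2 members with TCDD against DMSO, 0 between TCDD and Kyn and 9 between Kyn and CH, where edgeR called 4, 3 and 14, and the filter of 5 CPM called 12 between TCDD and CH, where the usual filter called 19, since it tests fewer genes. DESeq2 gave OAS2 no adjusted p with TCDD against DMSO or Kyn, and called it between TCDD and CH and between Kyn and CH. With each library left out, the counts ran from 2 to 7 with TCDD against DMSO, 0 to 0 with Kyn, 12 to 17 with CH, 1 to 4 between TCDD and Kyn, 13 to 19 between TCDD and CH, 8 to 14 between Kyn and CH and 15 to 24 in the joint test. The TCDD count was 2 without DMSO library 1 or TCDD library 3 and 7 without TCDD library 2, the count between TCDD and Kyn was 1 without Kyn library 1, and the count between Kyn and CH was 9 without Kyn library 2 and 8 without CH library 2; the cause was not tested. Replicate numbers are shared between groups, and the labels do not say if they mark a batch. Deviations of same-numbered libraries correlated by -0.055 to 0.037 in 18 pairs and those of other-numbered libraries by -0.053 to 0.083 in 36 pairs. No pairing by number was seen, though such correlations cannot exclude one. With a replicate block the counts were 4, 0, 15, 3, 19, 13 and 20 in the same order. No scaling moved the median of all genes by over 0.1 on the log2 scale. Depth limits the genes with few reads (OAS2, OASL, DHX58, IFIT1 and IFIT2), where differences rest on 2 to 93 reads per library.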
